A study of Mus musculus with 8 samples.

Results

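The lysosome is the acidic compartment in which cells break down proteins, glycans and lipids, and 37 genes for its hydrolases, their helper proteins, its membrane proteins and its transcription factors were followed in ethanol-fed mouse liver. They were chosen by name, as the rows of the deposited table whose GENCODE M21 symbol is on the list, and all 37 were found among the 55450 rows. RNA came from 8 livers of mice fed an ethanol diet. In 4 of the mice an adeno-associated virus (AAV) named for H19 had been injected (AAV-H19, livers 25 to 28), and in 4 the comparison virus AAV-Null (livers 21 to 24). H19 belongs to the imprinted long non-coding RNAs, made in fetal liver and nearly silent in the adult organ. All 8 mice carried a virus and ate ethanol, so nothing here compares ethanol with a control diet. The labels give no strain, sex, age, dose, promoter, insert of AAV-Null or time after injection.

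Lysosomal hydrolases are made in the endoplasmic reticulum, tagged with mannose 6-phosphate in the Golgi and carried to the lysosome by receptors that recognise the tag. Many of their genes carry a short E-box called the CLEAR motif, which is bound by the transcription factors TFEB and TFE3, and these factors enter the nucleus when the kinase complex mTORC1 at the lysosomal surface is inactive. In liver, hepatocytes and Kupffer cells, the resident macrophages, are both rich in lysosomes, and reduced TFEB has been reported in the livers of alcohol-fed mice.

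Most of the 37 genes were at close levels in the 2 groups. Arsb, Ids and Grn rose in AAV-H19 livers, Neu1 fell, and the other 33 did not pass the test (adjusted p under 0.05 by the quasi-likelihood test of edgeR, with Benjamini-Hochberg adjustment over 16672 genes). Over all genes tested, 5.60% were called higher and 6.07% lower, against 8.11% and 2.70% of the lysosomal genes, so the share called was near that of the background in both directions. The median log2 fold change was 0.07 for the 37 genes and -0.02 for all genes tested. The fitted change was within 0.5 on the log2 scale for 29 of the 37, and for 53.8% of all genes. The lysosomal genes are also well expressed, 34 of them above the median level of the genes tested, and their median standard error was 0.18 against 0.30 for all genes. Upper-quartile scaling called 2 of the 37 higher and 1 lower, against 3.93% and 9.34% of all genes. Fitted changes were positive for 20 and negative for 17, against 18 and 19 with upper-quartile scaling and 17 and 20 with an offset for transcript length. Leaving out AAV-H19 25, 26 or 27 left none of the 37 called by edgeR, with 7, 6 and 6 at an unadjusted p under 0.05, and leaving out AAV-H19 28 left Arsb alone.

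The libraries held 63747006 to 82988372 units of estimated count, and H19 itself was at 104 to 155 CPM (counts scaled to the library total) with AAV-H19 and 0.142 to 1.41 CPM with AAV-Null, so every library matched its label. In AAV-Null livers long transcripts were low relative to the mean of the 8 livers, with a Spearman's rho across genes of -0.384 to -0.104 per library, and in AAV-H19 livers they were high (0.200 to 0.413). Values from a fit with this length trend taken out are therefore given beside the called lysosomal genes. Because the trend follows the groups, that fit also takes out any group change that tracks transcript length. Such a change and a technical trend cannot be told apart in these livers. In that fit 1.49% of all genes were higher and 1.06% lower. With upper-quartile scaling the median log2 change over all genes was -0.13, and higher genes made up 29.6% of the calls in place of 48.0%. Markers of Kupffer cells and other macrophages moved with the groups. Of 19 such markers, 9 were lower and none higher in AAV-H19 livers, and their summed level was 349 to 553 CPM with AAV-Null and 211 to 298 CPM with AAV-H19, with none at 0. With the length offset 2 were lower, and the median log2 change was -0.72 in place of -0.93. In whole liver, fewer cells of a type and less RNA per cell cannot be told apart.

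Levels were compared between genes per kb of the longest annotated transcript. Lamp1, the most abundant glycoprotein of the lysosomal membrane, was the highest at 317 CPM per kb over the 8 livers. It was followed by Ctsz, Ctsd, Psap, Lamp2, Ctsl, Ctsb and Grn at 257 to 103 CPM per kb. The glycosidases ranged from 53.2 for Hexa to 0.843 for Idua, and the sulfatases from 13.2 for Arsa to 1.66 for Ids. Tfe3 and Tfeb were near the bottom at 4.03 and 2.13 CPM per kb. The summed level of the 37 genes was 5995 ± 551 CPM with AAV-Null and 6073 ± 232 CPM with AAV-H19 (SD, n = 4 each), so the total for these genes differed by less than its spread.

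**Figure D1:**
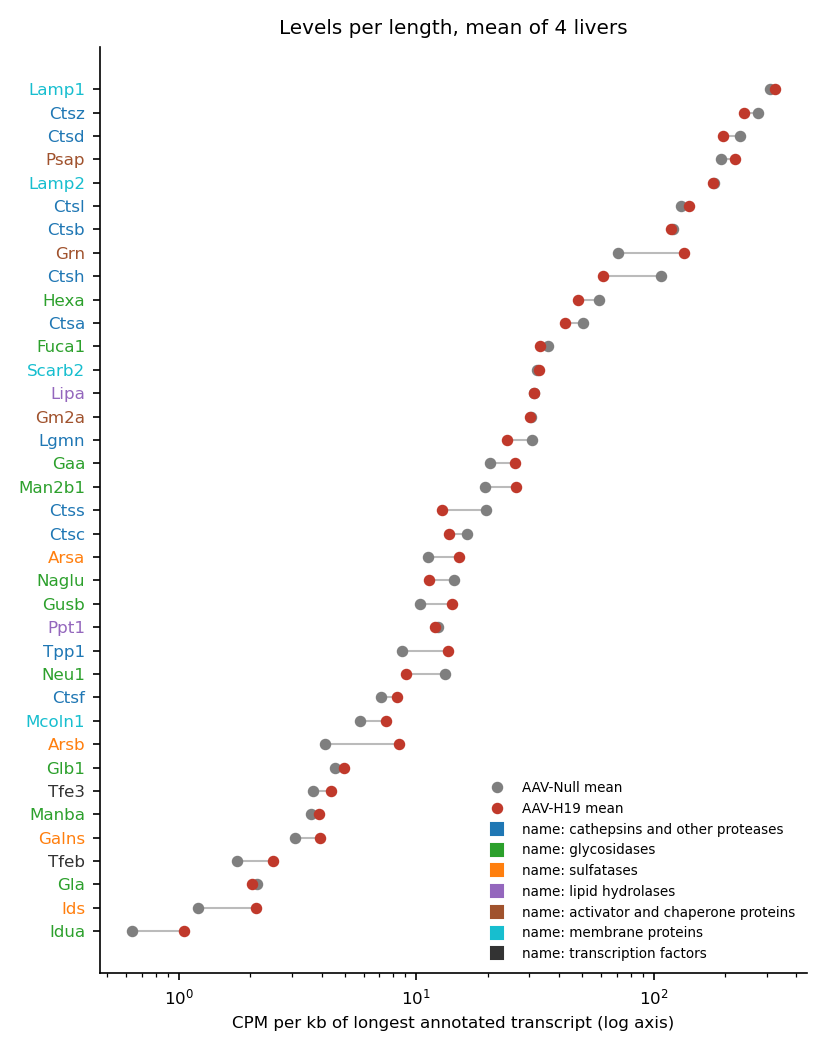
Mean level of each lysosomal gene in CPM per kb of its longest annotated transcript (log axis), in grey for AAV-Null and red for AAV-H19 (4 livers each), with gene names coloured by role. The order runs from Lamp1 at 317 to Idua at 0.843 CPM per kb over all livers, and the widest gaps between the 2 means are those of Arsb, Grn, Ids, Ctsh and Idua.

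Sulfatases remove sulfate groups from glycosaminoglycans and sulfolipids. Of the 4 measured, Arsb and Ids rose and Arsa and Galns did not pass. All 4 fitted changes were positive, with a median of 0.62. With the length offset the median was 0.44, and only Arsb of the 4 passed. Among all genes tested, 5.60% were called higher and 48.9% had a positive fitted change. Arsb encodes arylsulfatase B, which acts on dermatan sulfate and chondroitin sulfate. It was at 19.8, 11.8, 21.4 and 13.9 CPM in AAV-Null 21 to 24 and at 34.9, 34.9, 38.1 and 28.4 CPM in AAV-H19 25 to 28. Every AAV-H19 liver was above every AAV-Null liver, and AAV-Null 22 was the lowest. The log2 fold change was 1.03 ± 0.22 (SE, edgeR adjusted p = 0.0244), a 2.04-fold rise. With the length offset it was 0.84 ± 0.19 (edgeR adjusted p = 0.0470), and the call was lost without AAV-H19 25, 26 or 27 (adjusted p = 0.0784, 0.0661 and 0.0908). The gene (ENSMUSG00000042082) spans chr13:93771630-93943016 on the plus strand of GRCm38.

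Ids encodes iduronate 2-sulfatase, which starts the breakdown of heparan sulfate and dermatan sulfate. Its level was 5.80, 5.81, 7.01 and 5.38 CPM in AAV-Null 21 to 24 and 12.2, 11.5, 9.13 and 9.42 CPM in AAV-H19 25 to 28. The groups were apart, and livers 25 and 26 were the highest. The log2 fold change was 0.81 ± 0.18 (SE, edgeR adjusted p = 0.0268), a 1.76-fold rise. Its longest transcript has 4972 nt, among the longer of the 37, whose median is 3172 nt. With the length offset the log2 change was 0.48 ± 0.17 and did not pass (edgeR adjusted p = 0.140). The call was also lost when any AAV-H19 library or AAV-Null 24 was left out (adjusted p = 0.0501 to 0.0873). The gene (ENSMUSG00000035847) lies at chrX:70343069-70365084 on the minus strand.

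Arsa, which acts on sulfatide, was at 41.4, 29.6, 49.4 and 36.5 CPM in the AAV-Null livers and 51.2, 48.4, 69.3 and 41.8 CPM in the AAV-H19 livers. The groups overlapped, and its log2 change was 0.43 ± 0.21 (SE, edgeR adjusted p = 0.210). Galns, which acts on keratan sulfate and chondroitin sulfate, had a log2 change of 0.35 ± 0.39. AAV-Null 22 held 2.56 CPM, against 8.63 to 11.1 CPM elsewhere in its group. Sumf1, whose product activates every sulfatase by modifying its active site, averaged 24.9 ± 2.48 CPM with AAV-Null and 26.3 ± 2.11 CPM with AAV-H19 (SD, n = 4 each), with a log2 change of 0.08 ± 0.15.

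**Figure D2:**
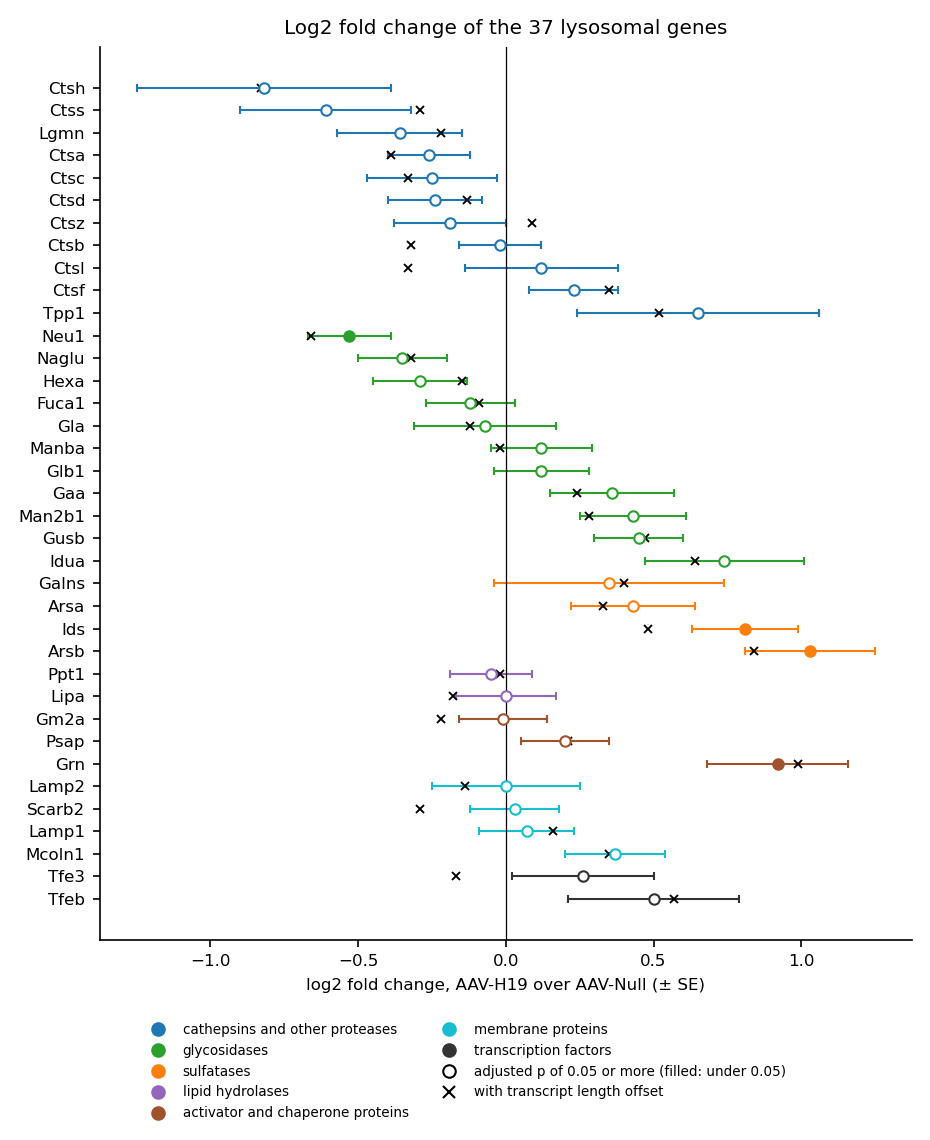
Log2 fold change of each of the 37 genes with its standard error, grouped and coloured by role, filled where the adjusted p was under 0.05. The filled points are Arsb, Ids, Grn and Neu1, and crosses give the value with the transcript length offset, which lies below the point for Ids and to the far side of 0 for Ctsl, Ctsz, Tfe3, Scarb2 and Manba.

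Glycosidases cut sugars from glycoproteins, glycolipids and glycosaminoglycans. Of 11 measured, Neu1 fell, none rose by edgeR, and 10 did not pass, while 5 were at an unadjusted p under 0.05. DESeq2 called Gusb higher and Neu1 lower, and limma-voom called Neu1 alone. Neu1 encodes sialidase 1, which removes terminal sialic acid. Its level was 47.9, 46.7, 44.7 and 51.5 CPM in AAV-Null 21 to 24 and 29.6, 30.4, 35.1 and 36.7 CPM in AAV-H19 25 to 28. The groups were apart, with both spreads narrow. Its log2 fold change was -0.53 ± 0.14 (SE, edgeR adjusted p = 0.0421), and with the length offset -0.66 ± 0.14 (edgeR adjusted p = 0.0468). The call was kept without AAV-Null 22 and lost when any of the other 7 libraries was left out (adjusted p = 0.0507 to 0.130), and with no filter on low values (adjusted p = 0.0724). The gene (ENSMUSG00000007038) lies at chr17:34931253-34935953 on the plus strand.

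Sialidase 1 works in a complex with the protective protein cathepsin A, encoded by Ctsa, and beta-galactosidase, encoded by Glb1. Ctsa was at 189.9, 189.7, 176 and 181 CPM in AAV-Null 21 to 24 and 140.1, 153, 166 and 157 CPM in AAV-H19 25 to 28. The groups did not overlap, and the log2 change of -0.26 ± 0.14 did not pass (SE, edgeR adjusted p = 0.236). Glb1 averaged 12.7 ± 1.38 CPM with AAV-Null and 13.9 ± 1.31 CPM with AAV-H19 (SD, n = 4 each), or 0.12 ± 0.16 in log2 change. With the overlapping gene Tmppe on the same strand summed in, the log2 change of Glb1 was 0.17.

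Gusb, Idua and Naglu lay apart between the groups without passing the test. Gusb, beta-glucuronidase, was at 28, 23.1, 29.7 and 30.5 CPM in AAV-Null 21 to 24 and 38.1, 40.8, 36.3 and 37.3 CPM in AAV-H19 25 to 28, with every AAV-H19 liver higher. Its log2 change was 0.45 ± 0.15 (SE, edgeR adjusted p = 0.0719). Idua, alpha-L-iduronidase, was at 2.34, 1.64, 2.38 and 2.58 CPM in AAV-Null livers and 3.90, 3.03, 2.82 and 5.16 CPM in AAV-H19 livers. It was the lowest of the 37 per length, and its log2 change was 0.74 ± 0.27 (edgeR adjusted p = 0.0994). Its exons overlap those of Slc26a1 on the opposite strand, which held 3022 to 15091 units per library against a mean of 221 for Idua. Without the authors' strand setting the value of Idua is therefore uncertain. Naglu, alpha-N-acetylglucosaminidase of heparan sulfate, was lower in every AAV-H19 liver. It was at 33.9, 43.7, 36.5 and 34.4 CPM in AAV-Null livers and 30.5, 29.5, 29.6 and 26.7 CPM in AAV-H19 livers. Its log2 change was -0.35 ± 0.15 (edgeR adjusted p = 0.141).

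Man2b1, lysosomal alpha-mannosidase, was at 87.5, 57.4, 87.7 and 66.7 CPM in AAV-Null livers and 105, 96.0, 107 and 96.2 CPM in AAV-H19 livers. The groups were apart by a small margin, and the log2 change was 0.43 ± 0.18 (SE, edgeR adjusted p = 0.130). Hexa, the alpha subunit of beta-hexosaminidase, was the most abundant glycosidase. It was at 114, 111, 109 and 133 CPM in AAV-Null livers and 80.4, 98.0, 88.6 and 115 CPM in AAV-H19 livers, which overlap. Its log2 change was -0.29 ± 0.16 (edgeR adjusted p = 0.267). The remaining glycosidases were Gaa, which degrades glycogen, the galactosidase gene Gla, the beta-mannosidase gene Manba and the fucosidase gene Fuca1. Their log2 changes were 0.36 ± 0.21, -0.07 ± 0.24, 0.12 ± 0.17 and -0.12 ± 0.15, and all 4 overlapped between the groups. AAV-Null 22 and 24 were low for Gaa, at 55.7 and 56.2 CPM, against 83.6 to 103 CPM in the AAV-H19 livers.

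In all, the groups did not overlap in 7 of the 37 genes with AAV-H19 higher, namely Arsb, Ids, Grn, Gusb, Idua, Man2b1 and Mcoln1. They did not overlap in 3 with AAV-H19 lower, namely Neu1, Ctsa and Naglu. This is 18.9% and 8.11% of the lysosomal genes, against 12.1% and 11.6% of all genes tested.

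**Figure D3:**
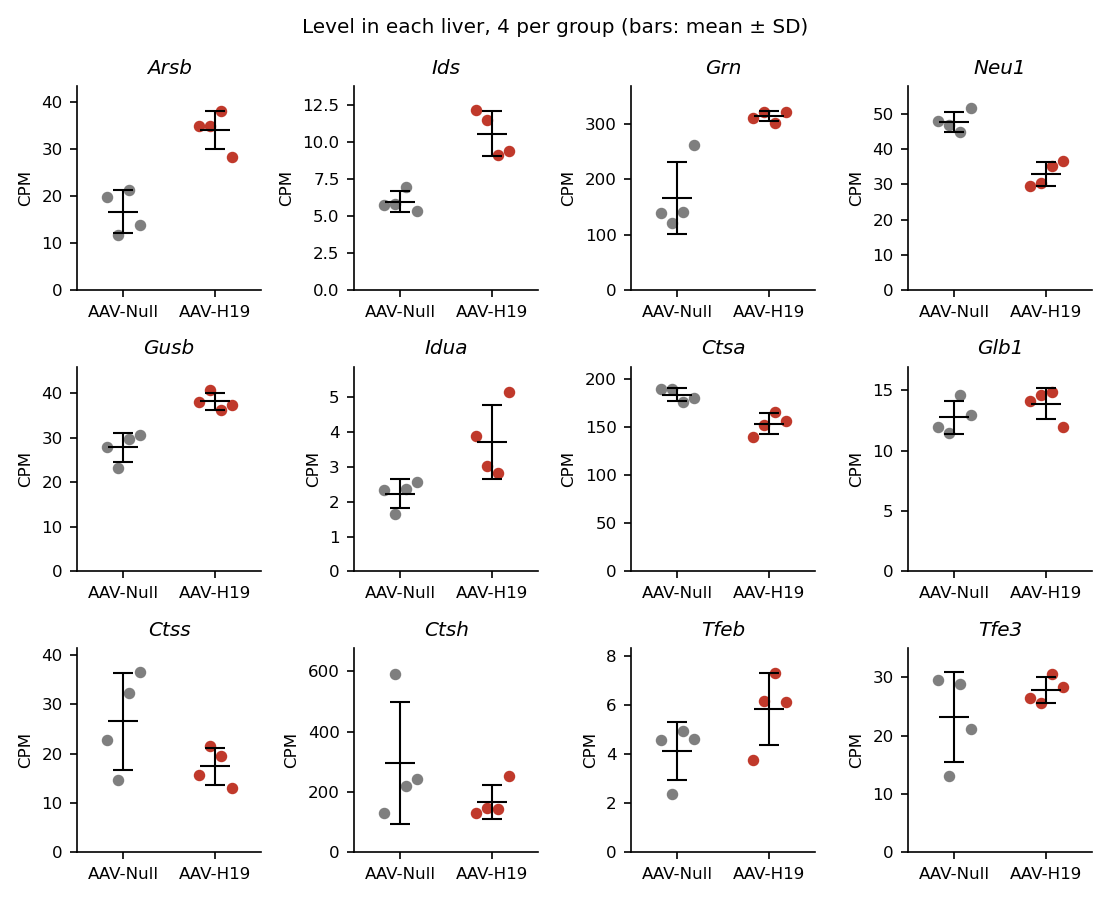
CPM of 12 lysosomal genes in each liver (points; axes start at 0), with mean and SD for 4 AAV-Null livers in grey and 4 AAV-H19 livers in red. Arsb, Ids, Grn, Gusb and Idua are higher and Neu1 and Ctsa lower in every AAV-H19 liver, whereas Glb1, Ctss, Ctsh, Tfeb and Tfe3 overlap between the groups.

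Activator and chaperone proteins help hydrolases reach or bind their substrates. Of 3 measured, Grn rose and Psap and Gm2a did not pass. Grn encodes progranulin, a secreted glycoprotein that is cut into granulins in the lysosome and is needed for normal lysosomal lipid breakdown. Its level was 140.1, 122, 142 and 262 CPM in AAV-Null 21 to 24 and 311, 321, 302 and 322 CPM in AAV-H19 25 to 28. The AAV-H19 livers lay close together and above all AAV-Null livers, of which AAV-Null 24 was the nearest. The log2 fold change was 0.92 ± 0.24 (SE, edgeR adjusted p = 0.0406), a 1.89-fold rise. Without AAV-Null 24 it was 1.23 (adjusted p = 0.0104), and leaving out any of the other 7 libraries ended the call (adjusted p = 0.0589 to 0.111). It also did not pass with the length offset (log2 change 0.99 ± 0.23, edgeR adjusted p = 0.0544) or with upper-quartile scaling (0.81, adjusted p = 0.0542). Grn is expressed strongly in macrophages, whose markers were lower in the same livers. The gene (ENSMUSG00000034708) lies at chr11:102430315-102437048 on the plus strand.

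Psap encodes prosaposin, the precursor of the saposins that present sphingolipids to hydrolases, and its protein binds progranulin. It was at 557, 457, 564 and 472 CPM in AAV-Null livers and 631, 593, 607 and 517 CPM in AAV-H19 livers. The groups overlapped, and the log2 change was 0.20 ± 0.15 (SE, edgeR adjusted p = 0.430). Gm2a, the activator that lets beta-hexosaminidase cut GM2 ganglioside, averaged 126 ± 5.78 CPM with AAV-Null and 125 ± 18 CPM with AAV-H19 (SD, n = 4 each).

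Cathepsins and other proteases digest proteins in the lysosome. None of 11 passed the edgeR test, with 0 at an unadjusted p under 0.05 and 0 called by DESeq2 or limma-voom. Of their fitted changes 8 were negative and 3 positive, with a median of -0.24, and -0.29 with the length offset. Their summed level was 2932 ± 319 CPM with AAV-Null and 2697 ± 234 CPM with AAV-H19 (SD, n = 4 each), and the ranges overlapped. Ctsl, a cysteine protease, had the most CPM of them, at 702, 566, 732 and 1217 CPM in AAV-Null livers and 865, 670.2, 839.7 and 1114 CPM in AAV-H19 livers. AAV-Null 24 and AAV-H19 28 were the highest of their groups, and the log2 change was 0.12 ± 0.26 (edgeR adjusted p = 0.797), or -0.33 with the length offset. Ctsb, the cysteine protease that is released into the cytosol when lysosomes leak, averaged 572 ± 41.6 CPM with AAV-Null and 564 ± 29.9 CPM with AAV-H19, a log2 change of -0.02 ± 0.14. Ctsd, the main aspartic protease, had a log2 change of -0.24 ± 0.16, and Ctsz, a carboxypeptidase, one of -0.19 ± 0.19, or 0.09 with the length offset.

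Ctsh, an aminopeptidase, varied most among the abundant cathepsins. It was at 129.6, 590.4, 221 and 242 CPM in AAV-Null 21 to 24 and at 131, 146, 143 and 252 CPM in AAV-H19 25 to 28. AAV-Null 22 was far above every other liver, and the log2 change of -0.82 ± 0.43 did not pass (SE, edgeR adjusted p = 0.230). Without AAV-Null 22 it was -0.24. Ctss, a cysteine protease of antigen-presenting cells, was at 22.8, 14.7, 32.3 and 36.5 CPM in AAV-Null livers and 15.6, 21.5, 19.6 and 13.0 CPM in AAV-H19 livers. The groups overlapped, with the 3 highest values all in AAV-Null livers. The log2 change was -0.61 ± 0.29 (edgeR adjusted p = 0.188), and -0.29 with the length offset. Its transcript of 1355 nt is the shortest of the 37. Ctss is mainly a macrophage transcript in liver, and the macrophage markers given above were lower in AAV-H19 livers. Their part in the values of Ctss and Grn was not tested.

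Among the other proteases, Ctsc, which activates serine proteases of immune cells, had a log2 change of -0.25 ± 0.22, and 0.00 without AAV-Null 22, where it was at 78.4 CPM against 41.1 to 48.8 CPM elsewhere in its group. Ctsf, a cysteine protease, had a log2 change of 0.23 ± 0.15. Tpp1, tripeptidyl peptidase 1, ranged from 12.6 to 61.1 CPM in AAV-Null livers and from 44.5 to 55.2 CPM in AAV-H19 livers. Its log2 change was 0.65 ± 0.41, and 1.18 without AAV-Null 24 (edgeR adjusted p = 0.0557). Lgmn, legumain, which cleaves after asparagine and matures other proteases, had a log2 change of -0.36 ± 0.21.

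The 2 lipid hydrolases did not pass and had changes near 0, with none at an unadjusted p under 0.05 in edgeR and none called by DESeq2 or limma-voom. Lipa, the acid lipase that frees cholesterol and fatty acids from lipoprotein lipids, was at 121, 149, 113 and 106 CPM in AAV-Null livers and 106, 147, 114 and 121 CPM in AAV-H19 livers. The ranges were nearly the same, and the log2 change was -0.00 ± 0.17 (SE). Ppt1, which removes palmitate from proteins, had a log2 change of -0.05 ± 0.14. Its value is uncertain in the same way as that of Idua, since Cap1 on the opposite strand held 3507 to 6266 units per library against a mean of 2361 for Ppt1.

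None of the 4 membrane proteins passed in edgeR, none was at an unadjusted p under 0.05, and DESeq2 and limma-voom called none. Lamp1 was at 573, 781, 615 and 785 CPM in AAV-Null livers and 706, 719.7, 734 and 730.3 CPM in AAV-H19 livers. The AAV-H19 values lay inside the AAV-Null range, and the log2 change was 0.07 ± 0.16 (SE, edgeR adjusted p = 0.808), or -0.04 with upper-quartile scaling. Lamp2, needed for fusion of autophagosomes with lysosomes, was at 489, 949.6, 437 and 708 CPM in AAV-Null livers and 624, 653, 589 and 710.1 CPM in AAV-H19 livers. The log2 change was -0.00 ± 0.25, with AAV-Null 22 the highest liver. Scarb2 encodes LIMP-2, an abundant protein of the lysosomal membrane, and had a log2 change of 0.03 ± 0.15, or -0.29 with the length offset and -0.08 with upper-quartile scaling. Mcoln1, the lysosomal calcium channel that promotes TFEB activation, was at 20.7, 13.4, 16.1 and 16.8 CPM in AAV-Null livers and 22.8, 21.6, 21.2 and 20.8 CPM in AAV-H19 livers. The groups were just apart, and the log2 change was 0.37 ± 0.17 (edgeR adjusted p = 0.173).

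Neither of the 2 transcription factors passed in edgeR, at an unadjusted p under 0.05 none did, and DESeq2 and limma-voom called neither. Tfeb was at 4.56, 2.39, 4.94 and 4.63 CPM in AAV-Null livers and 3.78, 6.15, 7.30 and 6.14 CPM in AAV-H19 livers. The groups overlapped, with AAV-H19 25 below 3 of the AAV-Null livers, and the log2 change was 0.50 ± 0.29 (SE, edgeR adjusted p = 0.276). Tfe3 was at 29.6, 13.1, 28.9 and 21.2 CPM in AAV-Null livers and 26.4, 25.6, 30.6 and 28.4 CPM in AAV-H19 livers. AAV-Null 22 was the lowest for both, and the log2 change of Tfe3 was 0.26 ± 0.24 (edgeR adjusted p = 0.519), or -0.17 with the length offset. Transcript levels do not measure the nuclear entry by which both factors are mainly controlled.

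The E-box of the CLEAR motif was looked for in the RefSeq promoter windows of GRCm38.p6, which run from 250 bases before to 50 after each start site, and which were found for 34 of the 37 genes. The core CACGTG reads the same on both strands, and the longer TCACGTG, searched on both strands, contains it. CACGTG was in 30.0% of the 40 windows of these genes against 7.15% of all 32851 windows, and TCACGTG in 25% against 3.77%. The full palindromic CLEAR consensus was in 0 of the 40 and in 0.326% of all windows. The 12 genes with CACGTG were Lamp1, Mcoln1, Ctsa, Ctsd, Ctsf, Ctsl, Gaa, Gla, Glb1, Naglu, Arsa and Lgmn. None of the 12 was called in either direction, and their log2 changes ran from -0.36 to 0.43 with a median of 0.09. The 22 genes with a window and no CACGTG held all 4 called genes, had log2 changes from -0.61 to 1.03 and had a median of 0.07. Over all genes tested 5.60% were called higher and 6.07% lower. With so few genes, the counts of calls cannot tell the sets of 12 and 22 apart. Ctsb, Ctsh and Galns had no window in the table. A match is only a string of letters, and a window without it says nothing of binding elsewhere.

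Windows are printed 5′ to 3′ on the strand of the gene, with each CACGTG in capitals. Lamp1 (chr8:13158911-13159210, plus strand) held 4 E-boxes, the most of the 34 genes, and Mcoln1 (chr8:3500269-3500568, plus strand) held 2. Ctsa, Ctsd and Gla also held 2. Lamp1 is shown for its number of E-boxes, and Mcoln1 because its groups lay apart, although neither gene passed the test. Of the other genes with an E-box, Ctsa and Naglu also lay apart, both with AAV-H19 lower.
Lamp1: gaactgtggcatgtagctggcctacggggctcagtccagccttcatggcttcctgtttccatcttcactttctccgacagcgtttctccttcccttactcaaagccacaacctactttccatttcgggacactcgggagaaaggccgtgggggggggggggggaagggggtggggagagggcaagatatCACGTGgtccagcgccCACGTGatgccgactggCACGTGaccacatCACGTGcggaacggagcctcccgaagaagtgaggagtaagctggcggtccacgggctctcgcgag
Mcoln1: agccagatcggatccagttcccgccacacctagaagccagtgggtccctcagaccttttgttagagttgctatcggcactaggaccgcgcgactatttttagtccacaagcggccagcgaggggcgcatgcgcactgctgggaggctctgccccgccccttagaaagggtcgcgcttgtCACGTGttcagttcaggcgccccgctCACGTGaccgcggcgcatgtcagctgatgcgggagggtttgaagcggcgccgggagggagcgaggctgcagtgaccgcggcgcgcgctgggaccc
The windows of the 4 called genes have no capitals, and are shown for comparison with those of Lamp1 and Mcoln1. They lie at chr13:93771429-93771728 on the plus strand for Arsb, chrX:70365036-70365335 on the minus strand for Ids, chr11:102430257-102430556 on the plus strand for Grn and chr17:34931003-34931302 on the plus strand for Neu1.
Arsb: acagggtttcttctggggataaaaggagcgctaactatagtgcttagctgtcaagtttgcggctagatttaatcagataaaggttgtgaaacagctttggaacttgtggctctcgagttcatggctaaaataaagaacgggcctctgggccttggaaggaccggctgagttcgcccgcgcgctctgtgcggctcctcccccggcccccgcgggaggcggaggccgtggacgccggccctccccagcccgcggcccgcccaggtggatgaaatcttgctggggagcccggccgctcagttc
Ids: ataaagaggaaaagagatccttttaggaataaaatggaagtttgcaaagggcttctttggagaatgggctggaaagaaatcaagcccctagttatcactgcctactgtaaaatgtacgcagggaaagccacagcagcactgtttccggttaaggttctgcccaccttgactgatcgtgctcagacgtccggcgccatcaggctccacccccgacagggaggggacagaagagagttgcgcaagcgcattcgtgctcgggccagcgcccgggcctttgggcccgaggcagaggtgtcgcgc
Grn: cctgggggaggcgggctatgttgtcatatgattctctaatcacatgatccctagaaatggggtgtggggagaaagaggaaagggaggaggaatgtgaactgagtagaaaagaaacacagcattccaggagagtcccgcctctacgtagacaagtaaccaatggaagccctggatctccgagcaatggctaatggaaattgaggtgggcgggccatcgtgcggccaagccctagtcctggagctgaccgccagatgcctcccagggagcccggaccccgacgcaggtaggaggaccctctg
Neu1: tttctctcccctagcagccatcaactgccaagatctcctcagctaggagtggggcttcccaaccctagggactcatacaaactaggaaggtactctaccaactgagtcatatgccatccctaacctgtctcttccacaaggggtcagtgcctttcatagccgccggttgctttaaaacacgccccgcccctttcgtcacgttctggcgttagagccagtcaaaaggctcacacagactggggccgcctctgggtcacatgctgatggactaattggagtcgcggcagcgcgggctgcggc

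The spread between livers was wider in AAV-Null than in AAV-H19. The SD of log2(CPM + 0.5) over 4 livers was larger in AAV-Null for 30 of the 37 genes, or 81.1%, against 76.0% of all genes tested. Its median over the 37 was 0.23 in AAV-Null and 0.15 in AAV-H19, against 0.37 and 0.22 over all genes. AAV-Null 22 was the lowest AAV-Null liver for 21 of the 37 genes, or 56.8%, against 33.8% of all genes, and the highest for 7, or 18.9%, against 33.3%. It was low for Tfeb, Tfe3, Tpp1, Galns, Arsb and Idua and high for Ctsh, Ctsc, Lamp2, Ctsd and Naglu. AAV-Null 24 was the highest for 16 of the 37, or 43.2%, against 21.4% of all genes, among them Ctsl, Grn, Tpp1, Lgmn, Ctss and Gla. Tpp1, Ctsh and Galns had the widest AAV-Null ranges, with a highest liver 4.83, 4.55 and 4.34 times the lowest. In the AAV-H19 livers no gene of the 37 ranged over more than 1.93 times, the value for Tfeb.

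**Figure D4:**
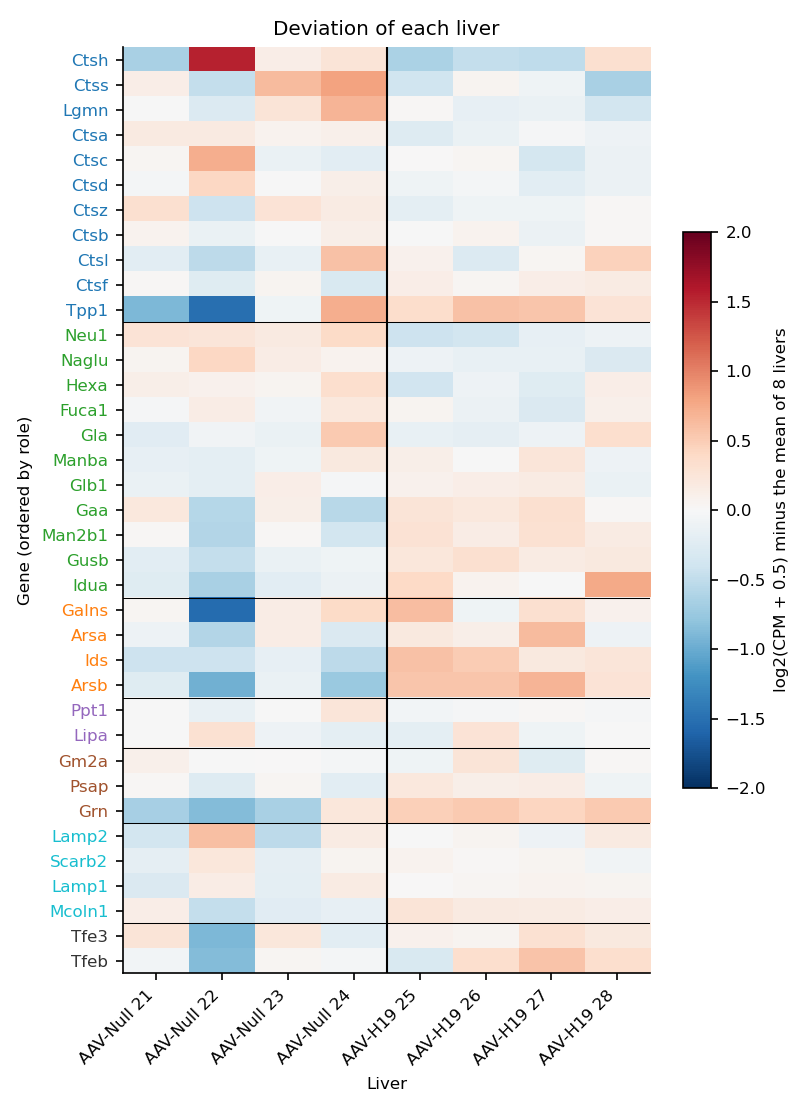
Log2(CPM + 0.5) of the 37 genes in each liver minus the mean of all 8, with genes ordered by role and the groups divided by a vertical line. AAV-Null 22 holds the deepest colours, red for Ctsh and blue for Tpp1 and Galns, whereas Arsb, Ids and Grn are red and Neu1 is blue in all AAV-H19 livers.

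Other genes of the lysosomal pathway were read from the same fit. The V-ATPase is the proton pump that acidifies the lysosome. Of 17 genes, Atp6v0a1 rose and Atp6v0b and Atp6v1f fell, and the median log2 change was -0.11. Atp6v0a1, a subunit of the membrane sector, was at 16.1, 6.98, 14 and 11.0 CPM in AAV-Null livers and 44.2, 29.1, 42.8 and 27.6 CPM in AAV-H19 livers, which are fully apart. Its log2 change was 1.58 ± 0.28 (SE, edgeR adjusted p = 0.0155), and 1.38 with the length offset (adjusted p = 0.0272). Atp6v0b and Atp6v1f had log2 changes of -1.16 ± 0.33 and -0.88 ± 0.20 (edgeR adjusted p = 0.0488 and 0.0283). Their transcripts are short, at 1000 and 806 nt, and with the length offset the changes were -0.63 and -0.33 and did not pass. Without AAV-Null 22, where Atp6v0b was at 167 CPM against 59.3 to 97.1 CPM elsewhere in its group, its log2 change was -0.75.

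Of 14 genes that tag hydrolases with mannose 6-phosphate or sort them, Ap1g1 rose and none fell. Fitted changes were positive for 12 of the 14, against 48.9% of all genes, with a median of 0.32. With the length offset the median was 0.11, and none of the 14 passed. Ap1g1, a subunit of the clathrin adaptor at the Golgi, was at 32.7, 27.8, 32.7 and 33.3 CPM in AAV-Null livers and 70.2, 61.9, 60.9 and 59.5 CPM in AAV-H19 livers. The groups were far apart, with a log2 change of 1.0 ± 0.14 (SE, edgeR adjusted p = 0.00736) that passed whichever library was left out. With the length offset it was 0.50 (adjusted p = 0.0785), for a transcript of 6899 nt. The mannose 6-phosphate receptor genes Igf2r and M6pr had log2 changes of 0.43 ± 0.14 and 0.55 ± 0.22 (edgeR adjusted p = 0.0711 and 0.122). Every AAV-H19 liver was higher for both, but with the length offset the change of Igf2r was -0.13. Gnptg and Ap1s1 had changes of -0.68 ± 0.26 and -0.48 ± 0.16 (edgeR adjusted p = 0.108 and 0.0759), with every AAV-H19 liver lower. The groups did not overlap in 3 of the 14 genes with AAV-H19 higher and in 2 with AAV-H19 lower, against 12.1% and 11.6% of all genes. DESeq2 called Igf2r and Ap1g1 higher and Ap1s1 lower.

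Among 20 tested genes of mTORC1 and the Rag machinery that control TFEB, Mtor and Tsc1 rose, Lamtor4 fell, and the median log2 change was -0.10. Mtor, the kinase itself, was at 45.6, 46.4, 41.9 and 40.9 CPM in AAV-Null livers and 80.1, 73.7, 74.2 and 51.3 CPM in AAV-H19 livers, a log2 change of 0.68 ± 0.17 (SE, edgeR adjusted p = 0.0355). Tsc1, an inhibitor of mTORC1, changed by a log2 of 0.80 ± 0.18 (edgeR adjusted p = 0.0285). Lamtor4, which anchors the Rag GTPases at the lysosome, averaged 70.9 ± 9.84 CPM with AAV-Null and 37.9 ± 2.79 CPM with AAV-H19 (SD, n = 4 each), a log2 change of -0.90 ± 0.15 (edgeR adjusted p = 0.0134). The transcripts of Mtor, Tsc1 and Lamtor4 have 8564, 7702 and 980 nt. In the fit with the length offset these genes had log2 changes of 0.09, 0.27 and -0.43 and did not pass.

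Of 26 other soluble lysosomal proteins, Hyal1 and Plbd2 rose and none fell, with a median of -0.13. Hyal1, the hyaluronidase of somatic lysosomes, was at 8.37, 7.59, 8.18 and 18.8 CPM in AAV-Null livers and 41.2, 38.9, 39.0 and 31.0 CPM in AAV-H19 livers. The groups were apart, with AAV-Null 24 the nearest, and the log2 change was 1.81 ± 0.30 (SE, edgeR adjusted p = 0.0134), or 1.78 with the length offset (adjusted p = 0.0200). With same-strand genes that overlap it summed in, the change was 0.71 (adjusted p = 0.0323). Plbd2, a phospholipase B-like protein, changed by a log2 of 0.81 ± 0.18 (edgeR adjusted p = 0.0277), and 0.53 with the length offset (adjusted p = 0.0808). Of 16 other membrane proteins and transporters none was called by edgeR, with 2 at an unadjusted p under 0.05. DESeq2 called Npc1 higher and Cd63 lower, limma-voom called none, and the median log2 change was 0.00. The calls of Atp6v0a1, Lamtor4 and Hyal1 were each lost without AAV-H19 25 or 27. That of Tsc1 was lost when any single AAV-H19 library was left out, and those of Plbd2 and Atp6v1f without AAV-H19 25, 26 or 27 or AAV-Null 24. Mtor kept its call only without AAV-H19 28 or AAV-Null 22, and Atp6v0b only without AAV-Null 21 or 23.

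Of the cell type lists, hepatocyte markers held 2 higher (Cps1 and Hnf4a) and 1 lower gene (Asgr1) of 12. The 12 summed to 87792 to 130387 CPM with AAV-Null and 131182 to 133970.2 CPM with AAV-H19, so the groups were just apart. Most of this sum was Alb, with a mean of 71303 CPM with AAV-Null and 89095 CPM with AAV-H19. The groups overlapped for Alb, which did not pass (edgeR adjusted p = 0.230). Of the 12 fitted changes 7 were positive and 5 negative, with a median of 0.17. The calls of Cps1, Hnf4a and Asgr1 were lost with the length offset (edgeR adjusted p = 0.0722, 0.0649 and 0.172). The macrophage list was led by Lyz2, C1qa, Aif1 and Clec4f, with log2 changes of -1.49 ± 0.25, -1.08 ± 0.19, -1.70 ± 0.33 and -0.93 ± 0.18 (SE, edgeR adjusted p = 0.0129, 0.0146, 0.0212 and 0.0213), and with all 19 fitted changes negative and a median of -0.93, against 0.07 for the lysosomal genes. In the length offset fit Lyz2 and Clec4f passed at -1.13 and -0.88 (edgeR adjusted p = 0.0358 and 0.0390), and C1qa and Aif1 did not, at -0.66 and -1.24 (adjusted p = 0.147 and 0.102). The endothelial list held 1 higher (Cdh5) and 1 lower gene (Clec4g) of 10, the stellate cell list 1 higher (Hgf) of 10, the cholangiocyte list 2 higher (Sox9 and Pkhd1) of 7, and the lymphocyte list 1 lower (Trbc2) of 6. None of these 6 genes passed with the length offset, which took Clec4g from -0.57 to -0.26 and Pkhd1 from 0.86 to 0.23. The call of Trbc2 was lost whichever library was left out. Of the 8 fits without a library, Cdh5 and Pkhd1 kept their calls in 1, and Asgr1 and Hgf in 2. Clec4g and Hnf4a kept theirs in 4, Sox9 in 6 and Cps1 in 7. The 9 called macrophage markers were each called in 1 to 7 of these fits. No neutrophil marker of 5 was called by edgeR, with 2 at an unadjusted p under 0.05, 1 called lower by DESeq2 and none by limma-voom.

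**Figure D5:**
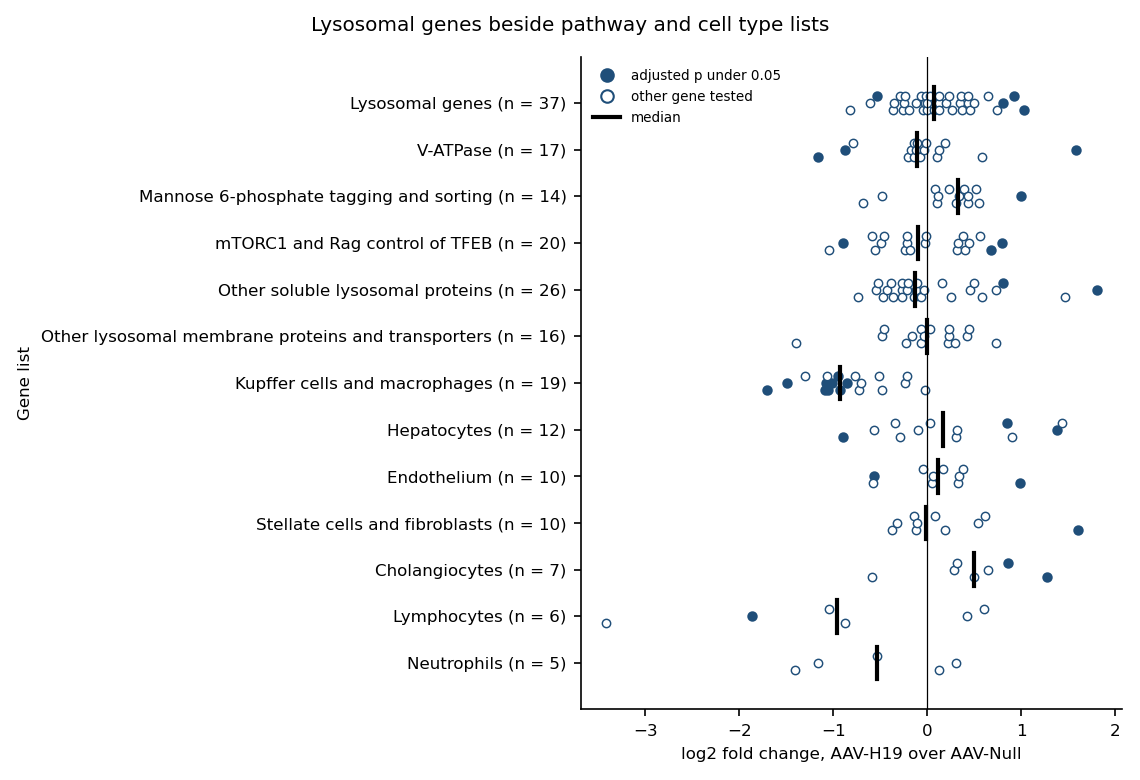
Log2 fold change of each gene in the lysosomal group and in 12 pathway and cell type lists, filled where the adjusted p was under 0.05, with the median of each list as a bar. The lysosomal genes centre on 0.07 and the macrophage markers on -0.93, and Hyal1 and Atp6v0a1 are the highest called points among the lysosomal pathway lists.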

How the data were processed

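Poly(A) RNA of 8 livers, 4 per group, was sequenced from stranded TruSeq libraries, per the labels' protocols. HISAT and StringTie are named per the submitters' processing notes, without versions. Genome build, annotation and counting strand were not given in the sources used here. Estimated counts (expected counts) per Ensembl gene are the deposited values, all whole and with different totals per library. Values of 4 were far more frequent (820 to 990 genes per library) than values of 5 (124 to 164), so a unit is not a read, and totals overstate the precision. Symbols, transcript lengths and positions came from GENCODE M21 (GRCm38).

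Low genes were removed by edgeR 4.0.16 (filterByExpr, minimum count 10, total 15), which left 16672 genes and dropped 0.0454% of the units. Groups were compared by TMM scaling and the robust quasi-likelihood test, without covariates, in R 4.3.3. A standard error is the absolute log2 change over the square root of F, and CPM are TMM-scaled. The procedure was also run on simulated counts, which lack the uneven low values described above and so cannot test their effect. Library pairs correlated at 0.897 to 0.968 (Pearson's r of log2 CPM) and none was a copy. Nothing says whether livers were handled in batches, and the p-values describe only the spread among these 8 libraries.

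Alternatives were DESeq2 1.42.0, limma-voom (limma 3.58.1), DESeq2 and upper-quartile size factors, other filters, an adjusted p of 0.1, values divided by 4, overlapping genes summed, an offset for each library's trend with length (spline with 5 degrees of freedom) and leaving out each library. The members and lists were chosen with earlier results of these data known. Values per library are given for called members, Tfeb and Tfe3, the member with most CPM of each role and the 12 with the smallest p. Ctsa and Lamp2 are outside these rules and are also given per library. Up to 4 called genes of each other list are named. Sumf1, Igf2r, M6pr, Gnptg, Ap1s1, Npc1, Cd63 and Alb were named after their values were seen.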

Additional observations from a re-analysis of the deposited data

Results flagged for a closer look

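A liver was set apart where its gap to the nearest of the other 3 livers of its group exceeded the 95% critical share of the range of the group in CPM (Dixon's test). Chance gives this in about 1 of 20 groups, and 4 of the 74 groups of lysosomal genes had such a liver. Tfeb was at 2.39 CPM in AAV-Null 22, against 4.56 to 4.94 CPM elsewhere in its group. Grn was at 262 CPM in AAV-Null 24, against 122 to 142 CPM. Ctsh was at 252 CPM in AAV-H19 28, against 131 to 146 CPM. Gla was at 8.31 CPM in AAV-H19 28, against 5.66 to 6.02 CPM.

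Of the other named genes, Ap1g1 (27.8 CPM), Cdh5 (11.4 CPM) and Trbc2 (0.807 CPM) stood apart in AAV-Null 22. Hyal1 was at 18.8 CPM in AAV-Null 24 and Asgr1 at 371 CPM in AAV-H19 27.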

How the results depend on the processing

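The counts of 3 higher and 1 lower lysosomal genes depended most on single libraries. When each library was left out in turn, 0 to 2 were higher and 0 to 1 lower, beside 86 to 1023 higher and 27 to 1050 lower genes in all. With the length offset 1 was higher (Arsb) and 1 lower (Neu1), and 249 and 176 genes in all. With no filter 0 were lower by edgeR, with 8 of the 37 at an unadjusted p under 0.05. At an adjusted p of 0.1, 5 were higher, and 1694 and 1885 genes in all. DESeq2 called 1640 and 2013 genes in all and upper-quartile scaling 1557 lower. The 4 called genes kept their direction in every alternative and every fit without a library. Of uncalled genes, log2 changes turned with the length offset for Tfe3 (-0.17), Scarb2 (-0.29), Ctsl (-0.33), Ctsz (0.09) and Manba (-0.02), with upper-quartile scaling for Lamp1 (-0.04) and Scarb2 (-0.08), with limma-voom for Lamp2 (0.06) and with the 1 CPM filter for Scarb2 (-0.00). The causes were not tested. Leaving out a library gave log2 changes of -0.07 to 0.02 for Ctsb, -0.35 to 0.00 for Ctsc, -0.03 to 0.39 for Ctsl, -0.21 to 0.15 for Gla, -0.10 to 0.06 for Gm2a, -0.02 to 0.14 for Lamp1, -0.17 to 0.24 for Lamp2, -0.10 to 0.10 for Lipa, -0.10 to 0.04 for Ppt1 and -0.04 to 0.11 for Scarb2. The same alternatives were run for the other named genes, a choice made after seeing the data. No paired analysis was possible because the groups share no replicate numbers.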
